A study of Mus musculus with 20 samples.

Results

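The histone cluster genes are the mouse genes whose symbols begin with Hist1h, Hist2h, Hist3h or Hist4h. The rule took every gene so named in a table of primary tumors and, through Ensembl identifiers, in a table of cultured cells. It gave 70 genes, of which 59 of 20188 genes were listed in the tumor table, 59 of 50667 annotated genes in the cell table and 50 in both. They comprised 6 linker (H1), 20 H2A, 19 H2B, 12 H3 and 13 H4 genes. Chromosome 13 held 56 of them, chromosome 3 held 10, chromosome 11 held 3 and chromosome 6 held 1. The family was selected on its sh4-against-scramble values in these same libraries, so every sh4-against-scramble value of a histone cluster gene given here is a description and supports nothing.

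The libraries came from Mvt1, a metastatic mouse mammary tumor cell line of FVB background, transduced with an shRNA against *Rnaseh2c* (sh4) or with a scramble shRNA (scr) and kept under puromycin. *Rnaseh2c* encodes a scaffold subunit of RNase H2, the enzyme that removes ribonucleotides from DNA. Tumor mRNA was taken from mammary tumors of FVB mice 30 days after implantation, 1 scr and 1 sh4 tumor from each of 3 experiments, and total RNA was taken from 3 scr and 3 sh4 plates of cultured cells. The sh4 cells were 1 shRNA line, so that line and knockdown cannot be told apart, and the scr cells went through the same selection.

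Most histone cluster genes are replication-dependent. They are transcribed in S phase to package new DNA, and their short, intronless mRNAs end in a conserved stem-loop, bound by SLBP, in place of a polyA tail. H2A, H2B, H3 and H4 form the nucleosome core and H1 binds the linker DNA between nucleosomes, whereas replacement histones such as H2A.Z and H3.3 come from genes with polyadenylated mRNAs that lie outside the clusters.

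The stem-loop was searched as a 5′ arm GGNNNT, a loop TNTN and a 3′ arm ANNNCC, directly joined, on the sense strand within 200 bases after the coding sequence, in the mm9 genome with the GENCODE vM1 models. It was found in 63 of 67 members with a coding model, 21 to 58 bases after the stop codon (median 30). The same letters occurred after 183 of 22380 protein-coding genes (0.818%), 120 of which were not members. All 6 linker, 11 H3 and 13 H4 genes searched had it, as did 17 of 19 H2A and 16 of 18 H2B genes. Those without a match in this window were *Hist1h2al*, *Hist1h2an*, *Hist2h2bb* and *Hist2h2be*. The sites of genes on which the results below turn are shown 5′ to 3′ with 5 flanking bases on each side, and the capitals mark the stem-loop.
Hist1h1c: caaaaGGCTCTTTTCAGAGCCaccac
Hist1h1e: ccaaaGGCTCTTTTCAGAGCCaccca
Hist1h2bg: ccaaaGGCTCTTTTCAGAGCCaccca
Hist1h2bk: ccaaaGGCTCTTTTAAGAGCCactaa
Hist1h3b: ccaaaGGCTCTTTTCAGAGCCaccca
Hist1h4d: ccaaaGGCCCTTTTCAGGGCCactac
Hist1h4i: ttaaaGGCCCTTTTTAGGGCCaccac
Hist1h4j: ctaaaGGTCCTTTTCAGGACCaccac
The *Hist1h1c* site lies at chr13:23831376-23831401 on the plus strand and the *Hist1h4i* site at chr13:22132830-22132855 on the minus strand. There were 8 distinct stem-loops. The form of *Hist1h1c* was shared by 39 genes of the H1, H2A, H2B and H3 classes, that of *Hist1h2bk* by 9, and the 13 H4 genes carried 4 forms of their own.

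Members also shared coding sequence. In 50 of 67 members more than 50% of the coding 50-mers occurred in another member, 7 members shared none, and 8 had a coding sequence identical to that of another. The median shared percentage was 10.9% in linker genes and 82% in H2A genes. Reads from these genes can be placed on more than 1 member, and how the authors' counting treated them was not given in the sources used here, so single core genes are less certain than their classes or than the linker genes.

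The promoters were told apart by class. Among 61 members with a RefSeq promoter window (GRCm38.p6, 250 bases before to 50 after the start), CCAAT on either strand was in all 6 linker, 17 H2A, 16 H2B and 10 H3 promoters but in 3 of 12 H4 promoters, against 37.9% of 27025 promoters. The octamer ATTTGCAT was in 7 of 17 H2A and 6 of 16 H2B promoters and in no other class (1.75% of all promoters). The H1 box AAACACA was in 5 of 6 linker promoters (7.14% of all), and GGTCCG, part of the H4 subtype element, was in 11 of 12 H4 promoters (8.39% of all). TATAAA was in 4 of 6 linker, 11 of 17 H2A, 8 of 16 H2B, 4 of 10 H3 and 8 of 12 H4 promoters (14.2% of all). The windows of the linker gene, the H2B gene and the H4 gene that stood out in the tumors are shown with these motifs, on either strand, in capitals.
Hist1h1c: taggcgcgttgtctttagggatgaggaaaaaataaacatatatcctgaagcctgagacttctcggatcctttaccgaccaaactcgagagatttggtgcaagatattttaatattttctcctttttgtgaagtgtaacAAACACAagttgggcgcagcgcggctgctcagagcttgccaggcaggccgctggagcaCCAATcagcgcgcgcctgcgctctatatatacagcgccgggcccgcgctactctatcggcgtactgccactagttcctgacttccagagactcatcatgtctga
Hist1h2bg: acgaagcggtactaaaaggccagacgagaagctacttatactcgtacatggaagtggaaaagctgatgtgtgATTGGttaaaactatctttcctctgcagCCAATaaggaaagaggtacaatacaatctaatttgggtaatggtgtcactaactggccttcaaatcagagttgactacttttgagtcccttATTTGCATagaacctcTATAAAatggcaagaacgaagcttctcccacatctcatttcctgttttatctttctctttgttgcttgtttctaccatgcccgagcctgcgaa
Hist1h4i: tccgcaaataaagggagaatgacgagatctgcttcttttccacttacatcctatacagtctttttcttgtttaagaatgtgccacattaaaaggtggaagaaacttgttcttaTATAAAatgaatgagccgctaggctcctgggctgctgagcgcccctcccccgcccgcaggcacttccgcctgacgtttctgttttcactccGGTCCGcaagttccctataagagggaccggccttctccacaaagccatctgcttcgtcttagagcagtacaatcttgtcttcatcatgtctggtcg
They lie at chr13:23738557-23738856 on the plus strand, chr13:23571150-23571449 on the plus strand and chr13:22041313-22041612 on the minus strand of GRCm38.p6.

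The tumor table holds RPKM, reads per kilobase of transcript scaled to library depth, and the cell table holds FPKM, the same for fragments. Each was scaled separately, so levels were not tested across them. The targeted gene was checked first. *Rnaseh2c* was at 26.9, 52.0 and 25.9 RPKM in scr tumors 1 to 3 and at 10.2, 22.4 and 19.8 RPKM in sh4 tumors 1 to 3. In the cells it was at 5.83, 7.06 and 5.34 FPKM in scr and 3.19, 5.36 and 4.28 FPKM in sh4 libraries, so that the highest sh4 value lay just above the lowest scr value. *Krt8*, an epithelial keratin, was at 248 to 691 RPKM and 269 to 349 FPKM, whereas *Epcam* and *Cdh1* were at no more than 2.09 RPKM and 0.0228 FPKM. The tumors also held other cells. The sum of 5 T cell markers was 20.7 to 26.8 RPKM in scr and 42.2 to 79.5 RPKM in sh4 tumors, and 4 of the 5 were higher without overlap in the sh4 tumors (4.19% of all genes tested). Of those 5, *Cd3e*, *Cd3g*, *Cd3d* and *Cd2* were listed at 0 in every cell library. Marker sums over the 6 tumors ranged from 978 to 1419 RPKM for macrophages, 279 to 798 for fibroblasts, 11.8 to 31.9 for endothelium, 2.06 to 4.54 for B cells, 0.354 to 33.5 for muscle and 412 to 1093 RPKM for epithelium. In the cells the epithelial sum was 436 to 550 FPKM, the macrophage sum 12.7 to 16.4 FPKM and the red blood cell sum 0.505 to 1.09 FPKM. Most of the macrophage sum there was *Cd68*, with *C1qa*, *C1qb* and *Emr1* at 0 in every cell library, and most of the red blood cell sum was *Alas2*. Each of the other lists summed to at most 0.573 FPKM. The part of these cells in the histone values was not tested.

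The level of the family differed greatly between the tables. In the tumors 53 of 59 members reached a mean of 0.1 RPKM, 30 reached 1 RPKM and 2 reached 10 RPKM, with a median of 1.00 RPKM. In the cells 58 of 59 reached 0.1 FPKM, 52 reached 10 FPKM and 43 reached 100 FPKM, with a median of 203 FPKM. The summed core histone level was 0.0623 to 0.162 of the summed level of the replacement histones listed in the tumors and 30.1 to 34.1 times it in the cells. RNA selection, tissue and processing all differed between the tables and cannot be told apart.

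The order of the genes also differed. In the tumors *Hist1h1c*, which encodes H1.2, was highest at 67.9 RPKM (mean of 6 libraries), followed by *Hist1h2bc* at 34.3, *Hist1h4i* at 9.10 and *Hist1h2bg* at 6.71 RPKM. In the cells *Hist1h4d* was highest at 1009 FPKM, followed by the linker genes *Hist1h1e* at 842 and *Hist1h1d* at 729 FPKM, and *Hist1h1c* stood at 352 FPKM. Across the 50 genes in both tables the scr means had a Spearman rho of 0.22, given as a description since the genes share libraries and, in part, sequence. The 4 highest genes of the tumors all have GENCODE vM1 models with more than 100 bases after the coding sequence, beyond the usual stem-loop end. So did 22 of the 58 tumor-listed members with a coding model. *Hist2h2bb*, one of the genes with no stem-loop match, was at 0.737 RPKM in tumors and 0.142 FPKM in cells, and *Hist2h2be*, another, was at 1.26 RPKM and 1.88 FPKM.

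**Figure D1:**
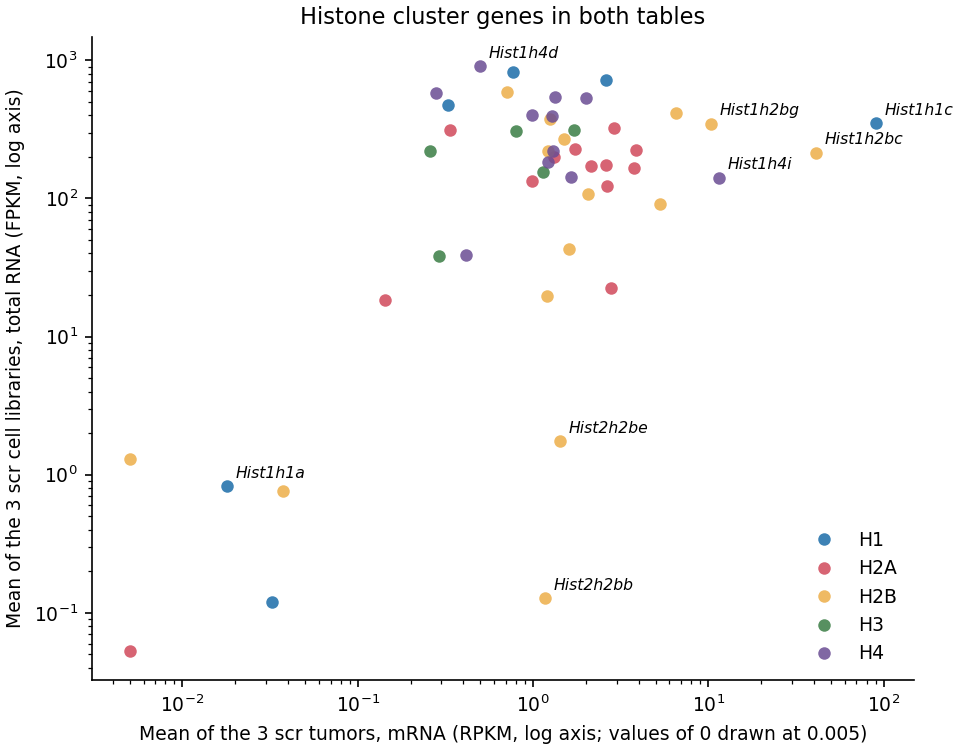
Mean of the 3 scr tumors (horizontal axis, RPKM, log scale) against the mean of the 3 scr cell libraries (vertical axis, FPKM, log scale) for the 50 histone cluster genes in both tables, with each point 1 gene colored by class. Most genes lie above 100 FPKM in the cells and near 1 RPKM in the tumors, *Hist1h1c* and *Hist1h2bc* lie far to the right, and *Hist2h2be* and *Hist2h2bb* lie low in the cells.

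Because 1 read has a fixed value in a gene, the reads behind low tumor values could be recovered. In 8 H4 genes of equal coding length 1 read was worth 0.0600 RPKM, and this value differed between libraries by factors of 0.999 to 1.002. Only factors close to 1 were searched, so these do not show that the libraries were sequenced to the same depth. Whole reads were found, within 0.05 of a read, for 43 of the 57 members above 0. They had 7 to 981 reads over the 6 tumors, with a median of 108. At most 40 reads were tried in the lowest tumor above 0. The most abundant members, among them *Hist1h1c*, *Hist1h2bc*, *Hist1h4i* and *Hist1h2bg*, were not recovered, so these reads do not describe the whole family. *Hist1h4d*, the highest member in the cells, rested on 1, 19 and 5 reads in the scr tumors and 7, 3 and 10 in the sh4 tumors. For such genes counting error alone is large, and that error is the only one the counts show.

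**Figure D2:**
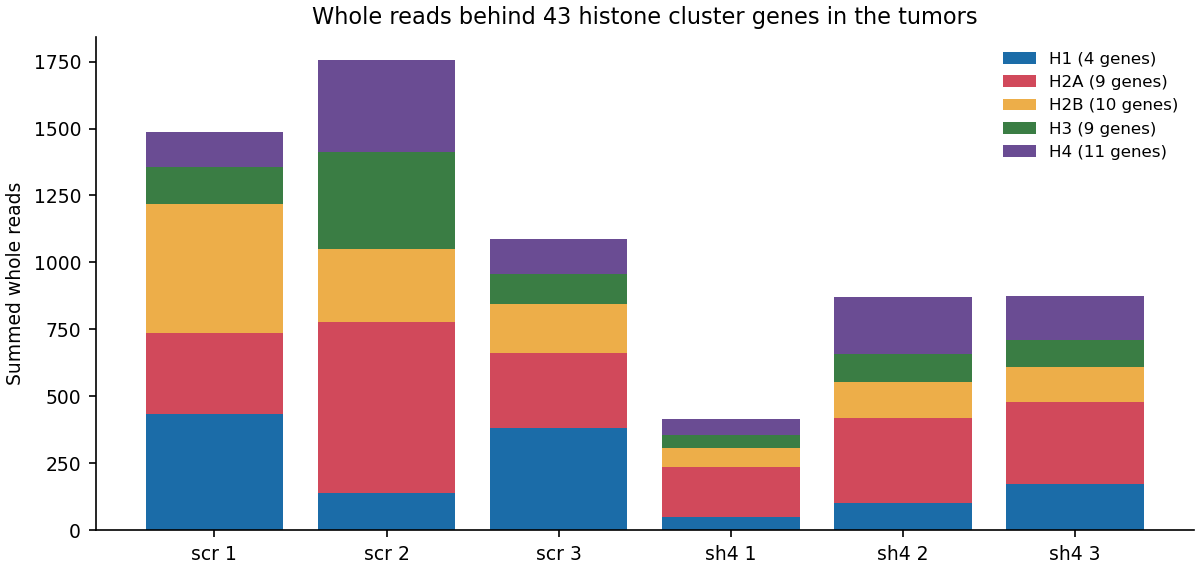
Whole reads recovered from the tumor values, summed over 43 histone cluster genes in each library (vertical axis, reads) and divided by class. The sums are 1486, 1755 and 1089 in scr tumors and 416, 869 and 875 in sh4 tumors. The most abundant members, among them *Hist1h1c*, were not recovered and are not in the sums. The H1 share of the recovered reads is small in scr tumor 2, where H2A, H3 and H4 reads are most.

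In the tumors the question was how the family stood in sh4 against scr tumors. Nearly all members were lower on average in sh4 tumors. The log2 fold change, on log2(RPKM + 0.5), was below 0 in 52 of 53 members with a mean of at least 0.1 RPKM (57.4% of all 13487 genes tested were below 0). Its median was -0.54 against -0.04 over all genes. The added 0.5 pulls the values of low genes toward 0, and the family median was -0.78 with 0.1 added and -0.39 with 1 added. By limma 0 members passed an adjusted p of 0.05, as did 0% of all genes, and 14 members had an unadjusted p under 0.05 with a lower value (2.02% of all genes). All 3 sh4 values lay below all 3 scr values in 14 members (4.98% of all genes). The members were chosen on this contrast, and nothing is read from these counts. In these bulk samples fewer cells of a type and less RNA per cell cannot be told apart.

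Among the linker genes, *Hist1h1c* was at 116, 57.5 and 98.8 RPKM in scr and 33.3, 39.1 and 62.0 RPKM in sh4 tumors. The groups overlapped only in that sh4 tumor 3 lay above scr tumor 2. Its mean of 44.8 ± 15.2 RPKM in the sh4 tumors stood against 90.9 ± 30.2 RPKM in the scr tumors (SD, n = 3), and the fitted log2 fold change was -1.003 (SE 0.32). *Hist1h1d*, which encodes H1.3, was at 3.91, 0.631 and 3.27 RPKM in scr and 0.361, 0.672 and 1.28 RPKM in sh4 tumors (log2 fold change -1.13, SE 0.53, and -1.75 without scr tumor 2). It rested on 379, 61 and 317 reads in scr and 35, 65 and 124 reads in sh4 tumors, and like *Hist1h1c* it was lowest among the scr tumors in scr tumor 2.

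*Hist1h1e* (H1.4) was at 0.711, 0.727 and 0.870 RPKM in scr and 0.188, 0.465 and 0.552 RPKM in sh4 tumors, the only linker gene whose groups did not overlap (log2 fold change -0.51, SE 0.20, and -0.33 without sh4 tumor 1). *Hist1h1b* (H1.5) was at 0.168, 0.728 and 0.0838 RPKM in scr and 0.0558, 0.140 and 0.252 RPKM in sh4 tumors. Its log2 fold change of -0.28 (SE 0.28) turned to 0.05 without scr tumor 2. The other 2 linker genes, *Hist1h1a* (H1.1) and the testis gene *Hist1h1t*, were at no more than 0.0541 and 0.0731 RPKM in any tumor and were not tested.

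The median log2 fold change was -0.76 both over the 4 linker genes and over 16 H2B genes, and which class was lower depended on the fit. All 16 H2B genes were below 0 (57.4% of all genes), and 10 of them did not overlap (4.98% of all genes lower without overlap). These counts too come from the contrast on which the family was chosen. *Hist1h2bc*, its highest member, was at 49.1, 32.6 and 41.6 RPKM in scr and 25.9, 32.5 and 24.0 RPKM in sh4 tumors (log2 fold change -0.57, SE 0.21). The gap between the groups was small, since sh4 tumor 2 lay just under scr tumor 2. *Hist1h2bg* had the most negative log2 fold change of the family, -1.45 (SE 0.41), from 12.5, 4.45 and 14.0 RPKM in scr to 2.75, 3.81 and 2.75 RPKM in sh4 tumors. *Hist1h2bk* was at 6.69, 8.48 and 4.38 RPKM in scr and 2.65, 3.89 and 3.25 RPKM in sh4 tumors (log2 fold change -0.87, SE 0.28), and here scr tumor 2 was the highest, not the lowest.

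*Hist1h2bp* and *Hist1h2bn* were carried by scr tumor 1. *Hist1h2bp* was at 4.49, 0.967 and 0.742 RPKM in scr and 0.408, 0.594 and 0.372 RPKM in sh4 tumors, and *Hist1h2bn* was at 9.20, 3.50 and 1.82 RPKM in scr and 1.23, 1.97 and 1.67 RPKM in sh4 tumors. *Hist1h2br*, which has the same coding sequence as *Hist1h2bq*, was highest in scr tumor 3, at 4.15, 3.34 and 8.36 RPKM in scr and 1.43, 2.59 and 2.34 RPKM in sh4 tumors. The log2 fold changes of *Hist1h2bp*, *Hist1h2bn* and *Hist1h2br* were -1.13 (SE 0.49), -1.09 (SE 0.48) and -1.08 (SE 0.35), and without scr tumor 1 the values of *Hist1h2bp* and *Hist1h2bn* were -0.50 and -0.54. *Hist2h2bb*, with no stem-loop match, was at 1.97, 0.258 and 1.29 RPKM in scr and 0.429, 0.0859 and 0.387 RPKM in sh4 tumors. It was low in both tumors of experiment 2, and its log2 fold change of -0.93 was -1.42 without scr tumor 2 and -0.57 without scr tumor 1.

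H2A genes were closer to 0, with a median log2 fold change of -0.33 over 11 genes, none of which separated the groups, and without scr tumor 2 the median was -0.11. *Hist1h2ai* was at 2.96, 6.02 and 2.67 RPKM in scr and 1.91, 3.20 and 3.10 RPKM in sh4 tumors, and *Hist1h2ah* at 2.71, 5.87 and 2.76 RPKM in scr and 1.94, 2.71 and 2.96 RPKM in sh4 tumors. In both, scr tumor 2 stood far above the other scr tumors, which lay within the sh4 range. Their log2 fold changes of -0.39 for *Hist1h2ai* and -0.43 for *Hist1h2ah* became -0.059 and -0.11 without scr tumor 2. *Hist3h2a*, a chromosome 11 gene, hardly varied, at 3.28, 2.31 and 2.78 RPKM in scr and 3.03, 2.29 and 2.26 RPKM in sh4 tumors.

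H2A and H2B genes often lie head to head, and 13 such pairs had starts within 500 bases of each other. Both partners were tested in 8 pairs in the tumors, and the H2B partner had the more negative log2 fold change in 7 of them, with medians of -0.36 for H2A and -0.81 for H2B. The pair *Hist1h2ae* and *Hist1h2bg*, 176 bases apart, had -0.30 and -1.45. The exception was *Hist2h2ac* and *Hist2h2be* on chromosome 3, at -0.69 and -0.26. Some H2A partners were low, where the added 0.5 pulls the log2 fold change farther toward 0. *Hist1h2ac*, at 0.828 RPKM, and *Hist1h2bc*, at 34.3 RPKM, had -0.33 and -0.57, but their ratios of sh4 to scr means were 0.686 and 0.668. *Hist1h2ag*, at 2.30 RPKM, and *Hist1h2bj*, at 1.09 RPKM, had -0.29 and -0.74, so that here the H2B partner was the scarcer. In the cells the H2B partner had the more positive value in 7 of 8 pairs, with medians of 0.20 and 0.36, so that there too the H2B value was farther from 0. The H2B partners there included the pseudogene *Hist3h2bb-ps*, at 1.54 FPKM.

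H3 genes had a median log2 fold change of -0.65 over 10 genes, all below 0 (57.4% of all genes). The median became -0.29 without scr tumor 2. *Hist1h3b* was at 1.14, 3.24 and 0.730 RPKM in scr and 0.228, 0.594 and 0.822 RPKM in sh4 tumors (log2 fold change -0.95, SE 0.42). *Hist1h3d* was at 1.97, 3.78 and 1.48 RPKM in scr and 0.907, 1.57 and 1.45 RPKM in sh4 tumors (-0.63, SE 0.32), and *Hist1h3h* was at 0.960, 3.51 and 0.751 RPKM in scr and 0.334, 0.626 and 1.00 RPKM in sh4 tumors (-0.79, SE 0.45). All these genes were highest in scr tumor 2 and lowest in sh4 tumor 1, and without scr tumor 2 the log2 fold changes were -0.48 for *Hist1h3b*, -0.31 for *Hist1h3d* and -0.27 for *Hist1h3h*. *Hist1h3c* was at 0.337, 1.56 and 0.505 RPKM in scr and 0.252, 0.716 and 0.379 RPKM in sh4 tumors, and its log2 fold change of -0.37 (SE 0.35) became 0.02 without scr tumor 2. The groups did not overlap for *Hist1h3g* and *Hist2h3b*.

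H4 genes had a median of -0.40 over 12 genes. Without scr tumor 2 this median turned to 0.02, and without sh4 tumor 1 it was -0.13. Over all 6 tumors *Hist1h4f*, at 0.02, was the only member above 0. *Hist1h4i*, the highest H4 gene and the only one whose groups did not overlap, was at 13.7, 8.67 and 12.0 RPKM in scr and 4.50, 8.36 and 7.34 RPKM in sh4 tumors (log2 fold change -0.74, SE 0.28). *Hist1h4h* was at 1.85, 2.52 and 1.61 RPKM in scr and 0.711, 3.99 and 2.19 RPKM in sh4 tumors, so that its highest value was in sh4 tumor 2 and its log2 fold change was -0.01 (SE 0.45). *Hist1h4j* was at 1.56, 2.34 and 1.02 RPKM in scr and 0.600, 1.68 and 1.14 RPKM in sh4 tumors (-0.39, SE 0.33). It ranged from -0.63 without sh4 tumor 2 to -0.16 without scr tumor 2 and -0.13 without sh4 tumor 1.

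**Figure D3:**
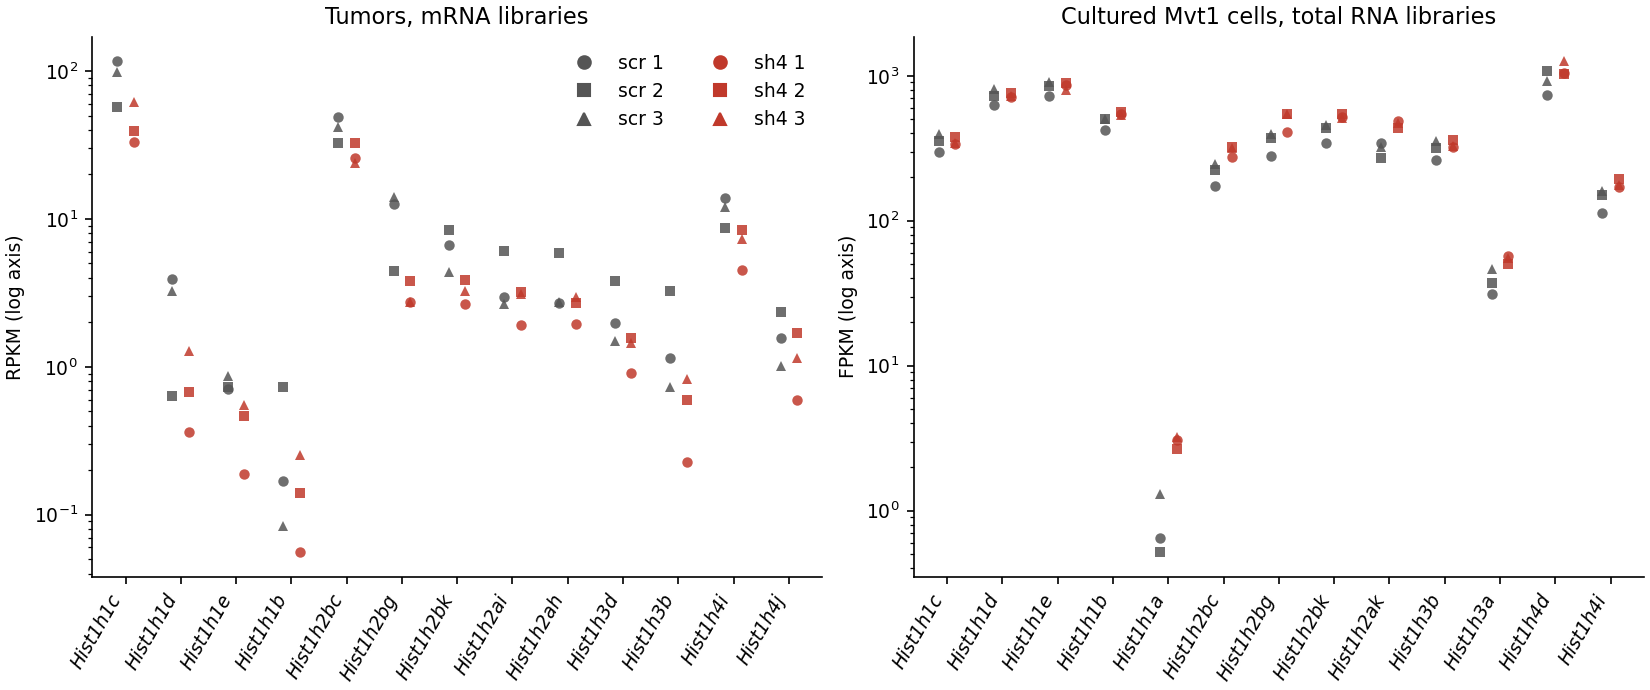
Values of the main linker genes and of leading core genes in each library, for tumors (left, RPKM, log axis) and cells (right, FPKM, log axis), with scr in gray, sh4 in red and the shape giving the experiment or plate number. In the tumors *Hist1h1c*, *Hist1h1d* and *Hist1h2bg* are high in scr tumors 1 and 3, whereas *Hist1h2ai*, *Hist1h2ah* and *Hist1h3b* are high in scr tumor 2 alone.

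The library in which a member was highest differed with the length of its GENCODE vM1 gene model. The tumor values rested in part on other models. In *Hist1h4a*, with 154 annotated bases after the coding sequence, 1 read was worth 0.0600 RPKM, as in *Hist1h4k*, with 0. In *Hist1h2ai*, with 638, it was worth 0.0477 RPKM, as in *Hist1h2an*, with 0. The long and short groups therefore do not sort members by the lengths behind the tumor values. Of 33 tested members with at most 100 annotated bases after the coding sequence, 25 were highest in scr tumor 2 and 26 lowest in sh4 tumor 1. Of 20 members with longer models, 8 were highest in scr tumor 1, 7 in scr tumor 2 and 4 in scr tumor 3, and 14 were lowest in sh4 tumor 1. As a median deviation from each gene's own mean, on the log2 scale, scr tumor 2 stood at 0.79 for the short models and 0.11 for the long ones. The median log2 fold changes of the short and long models were nearly equal, at -0.54 and -0.52.

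The experiments did not give the same difference. Within experiment 1 the median of sh4 minus scr was -0.79 on the log2 scale, with 50 of 53 members lower in sh4. Within experiment 2 it was -0.70, with 49 lower, and within experiment 3 it was -0.02, with 27 lower and 26 higher. Over all 13487 genes the medians were 0.05, -0.08 and -0.09 in experiments 1 to 3, with 5765, 7778 and 7905 genes lower. In experiment 3 the H2B median was -0.53, with 13 of 16 lower, and the linker median was -0.52, with 3 of 4 lower, whereas the H2A and H4 medians were 0.08 and 0.30. The long models had a median of -0.53 in that experiment and the short models 0.05. The family median over all 6 tumors moved from -0.54 to -0.30 without scr tumor 2 and to -0.33 without sh4 tumor 1.

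Some measures outside the family also set scr tumor 2 or sh4 tumor 1 apart, and others did not. In scr tumor 2 the 4 adipocyte markers summed to 1663 RPKM, against 23.6 to 226 RPKM in the other tumors, with sh4 tumor 1 the second highest. *Hbb-b1*, a globin gene of red blood cells, was at 340 RPKM in scr tumor 2, 14.8 in sh4 tumor 1 and 35.0 to 96.0 RPKM in the others. The replacement histones had their lowest median deviation, -0.43, in sh4 tumor 1 and stood at 0.048 in scr tumor 2. The genes of 27 replication factors expressed in S phase had a median deviation of 0.18 in scr tumor 2 and -0.0022 in sh4 tumor 1, and were lowest in sh4 tumor 2 at -0.32. The difference between genes under 1000 and over 4000 annotated exon bases was -0.19, 0.22 and -0.28 in the scr and -0.29, 0.38 and 0.068 in the sh4 libraries, by experiment, and with this value as a covariate the family median was -0.71. The part of any of these in the histone values was not tested.

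**Figure D4:**
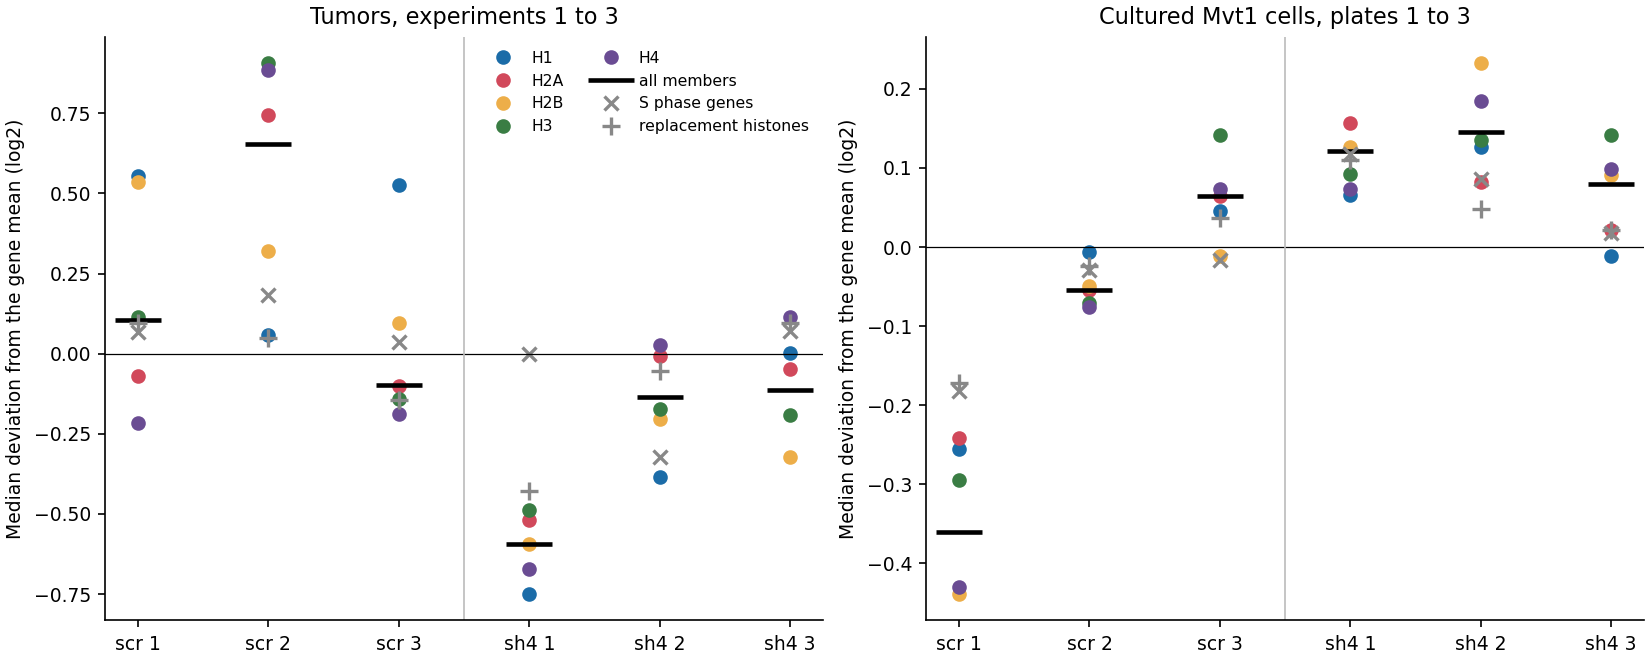
Median deviation of each histone class from each gene's mean over the 6 libraries (vertical axis, log2 units) in every tumor (left) and cell library (right), with the median of all members as a bar and S phase genes and replacement histones as gray signs. Scr tumor 2 stands highest at 0.65 and sh4 tumor 1 lowest at -0.59 for all members, and in the cells scr library 1 stands apart at -0.36.

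Genes that make or handle histones outside the clusters were given from fixed lists. In the tumors 8 of 11 replacement histone genes were below 0, with a median log2 fold change of -0.10. *H3f3a*, which encodes H3.3, was at 476, 315 and 368 RPKM in scr and 421, 248 and 258 RPKM in sh4 tumors. The ratio of summed core cluster histones to summed replacement histones was 0.123, 0.162 and 0.125 in scr and 0.0623, 0.122 and 0.0927 in sh4 tumors, and sh4 tumor 2 nearly reached scr tumor 1. The medians were -0.04 for 18 histone mRNA factors, -0.04 for 18 chaperones, -0.18 for 27 S phase genes and -0.27 for 18 mitosis genes, with 10, 10, 23 and 15 genes below 0. No gene of these lists passed limma's adjusted p of 0.05 in the tumors, and *Gins2*, *Cdc45* and *Aurka* were the 3 with an unadjusted p under 0.05. Over all 13487 genes 273 were lower and 291 higher at that unadjusted p, and nothing is read from the 3.

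In the cultured cells most members were higher on average in the sh4 libraries. The size of this difference depended on 1 library, and its direction on the fit. The log2 fold change, on log2(FPKM + 0.5), was above 0 in 54 of 58 members (49.6% of all 21106 genes tested were above 0), with a median of 0.25 against -0.0022 over all genes. The median was 0.12 without scr library 1. With the difference between short and long genes as a covariate it turned to -0.013, against -0.058 over all genes. There 27 of 58 members were above 0. This covariate was higher in all 3 sh4 than in all 3 scr libraries, so that fit cannot separate it well from the group. By limma 1 member passed an adjusted p of 0.05, against 1.28% of all genes. An unadjusted p under 0.05 with a higher value was found for 17 members (9.55% of all genes). All 3 sh4 values lay above all 3 scr values in 23 members (13.6% of all genes). As in the tumors, the rule used this contrast and nothing is read from the counts. Whether the plates were separate cultures was not stated, so p-values measure only the spread between these libraries.

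The abundant linker genes hardly differed in the cells. *Hist1h1e* was at 724, 856 and 912 FPKM in scr and 864, 894 and 803 FPKM in sh4 libraries (log2 fold change 0.05, SE 0.12). *Hist1h1d* was at 625, 726 and 814 FPKM in scr and 720, 759 and 728 FPKM in sh4 libraries (0.04, SE 0.12), and *Hist1h1c* at 296, 352 and 399 FPKM in scr and 340, 379 and 344 FPKM in sh4 libraries (0.03, SE 0.12). In all of these the sh4 values lay within the scr range. *Hist1h1b* was at 423, 506 and 500 FPKM in scr and 543, 562 and 537 FPKM in sh4 libraries, with no overlap (0.20, SE 0.10, and 0.12 without scr library 1).

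The member past the adjusted threshold was *Hist1h1a*, a scarce linker gene, at 0.647, 0.518 and 1.30 FPKM in scr and 3.09, 2.66 and 3.24 FPKM in sh4 libraries. Its log2 fold change was 1.44 (SE 0.22), the largest of the family, and the call was lost in every fit that left out 1 library. *Hist1h1t* was at 0.0757, 0.202 and 0.0806 FPKM in scr and 0.381, 0.495 and 0.176 FPKM in sh4 libraries.

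H2B genes had a median of 0.36 over 16 genes, 15 above 0 (49.6% of all genes). *Hist1h2bg* was at 278, 370 and 397 FPKM in scr and 410, 548 and 542 FPKM in sh4 libraries (0.52, SE 0.18), and *Hist1h2bc* at 173, 224 and 248 FPKM in scr and 276, 324 and 316 FPKM in sh4 libraries (0.52, SE 0.15). *Hist1h2bk* was at 343, 439 and 455 FPKM in scr and 517, 544 and 510 FPKM in sh4 libraries (0.35, SE 0.12). None of these overlapped between the groups, and in each scr library 1 was the lowest. *Hist1h2bb*, the highest H2B gene, was at 488, 598 and 688 FPKM in scr and 716, 763 and 719 FPKM in sh4 libraries (0.32, SE 0.14), and *Hist1h2bh* at 289, 412 and 434 FPKM in scr and 475, 510 and 532 FPKM in sh4 libraries (0.44, SE 0.16). Without scr library 1 the values fell to 0.19 for *Hist1h2bb*, 0.26 for *Hist1h2bh* and 0.23 for *Hist1h2bk*. *Hist1h2bq* was at 57.0, 87.7 and 75.2 FPKM in scr and 100.2, 107 and 77.2 FPKM in sh4 libraries, with overlap (0.37, SE 0.19, and 0.21 without scr library 1).

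H2A genes had a median of 0.15 over 17 genes, 15 above 0 (49.6% of all genes). *Hist1h2ak* was at 342, 272 and 323 FPKM in scr and 490, 433 and 471 FPKM in sh4 libraries (0.58, SE 0.11), one of the few members in which scr library 1 was not the lowest. *Hist1h2al*, with no stem-loop match, was at 433, 518 and 212 FPKM in scr and 592, 584 and 552 FPKM in sh4 libraries (0.67, SE 0.32). Its value was 0.28 without scr library 3, the lowest library of this gene. *Hist2h2ac* was at 146, 220 and 236 FPKM in scr and 263, 286 and 262 FPKM in sh4 libraries (0.46, SE 0.18, and 0.24 without scr library 1). *Hist2h2aa1* ranged from 26.2 to 128 FPKM with no relation to the groups, while its identical copy *Hist2h2aa2* was at 435, 524 and 468 FPKM in scr and 639, 546 and 586 FPKM in sh4 libraries.

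H3 and H4 genes had medians of 0.14 over 7 genes and 0.27 over 12 genes. *Hist1h3a* was at 31.3, 37.3 and 46.6 FPKM in scr and 57.4, 50.6 and 55.7 FPKM in sh4 libraries (0.52, SE 0.14), whereas the more abundant *Hist1h3b* was at 263, 315 and 357 FPKM in scr and 323, 360 and 326 FPKM in sh4 libraries (0.12, SE 0.12). *Hist1h3c* was at 263, 303 and 352 FPKM in scr and 319, 361 and 324 FPKM in sh4 libraries (0.14, SE 0.12), and *Hist1h3e* at 183, 215 and 267 FPKM in scr and 226, 235 and 230 FPKM in sh4 libraries (0.074, SE 0.14). In these last genes the sh4 values overlapped the scr range, and without scr library 1 the values were 0.0012 for *Hist1h3b*, 0.034 for *Hist1h3c* and -0.055 for *Hist1h3e*. *Hist1h4d* was at 735, 1071 and 925 FPKM in scr and 1037, 1027 and 1259 FPKM in sh4 libraries (0.29, SE 0.17, and 0.15 without scr library 1), with the groups overlapping. *Hist1h4f* was at 463, 618 and 661 FPKM in scr and 623, 678 and 657 FPKM in sh4 libraries (0.18, SE 0.15, and 0.029 without scr library 1), and *Hist1h4n* at 428, 526 and 666 FPKM in scr and 618, 660 and 631 FPKM in sh4 libraries (0.26, SE 0.16, and 0.10 without scr library 1). All 12 H4 genes were above 0 (49.6% of all genes), and 5 of them did not overlap (13.6% of all genes higher without overlap). The rule used this contrast, and nothing is read from these counts.

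**Figure D5:**
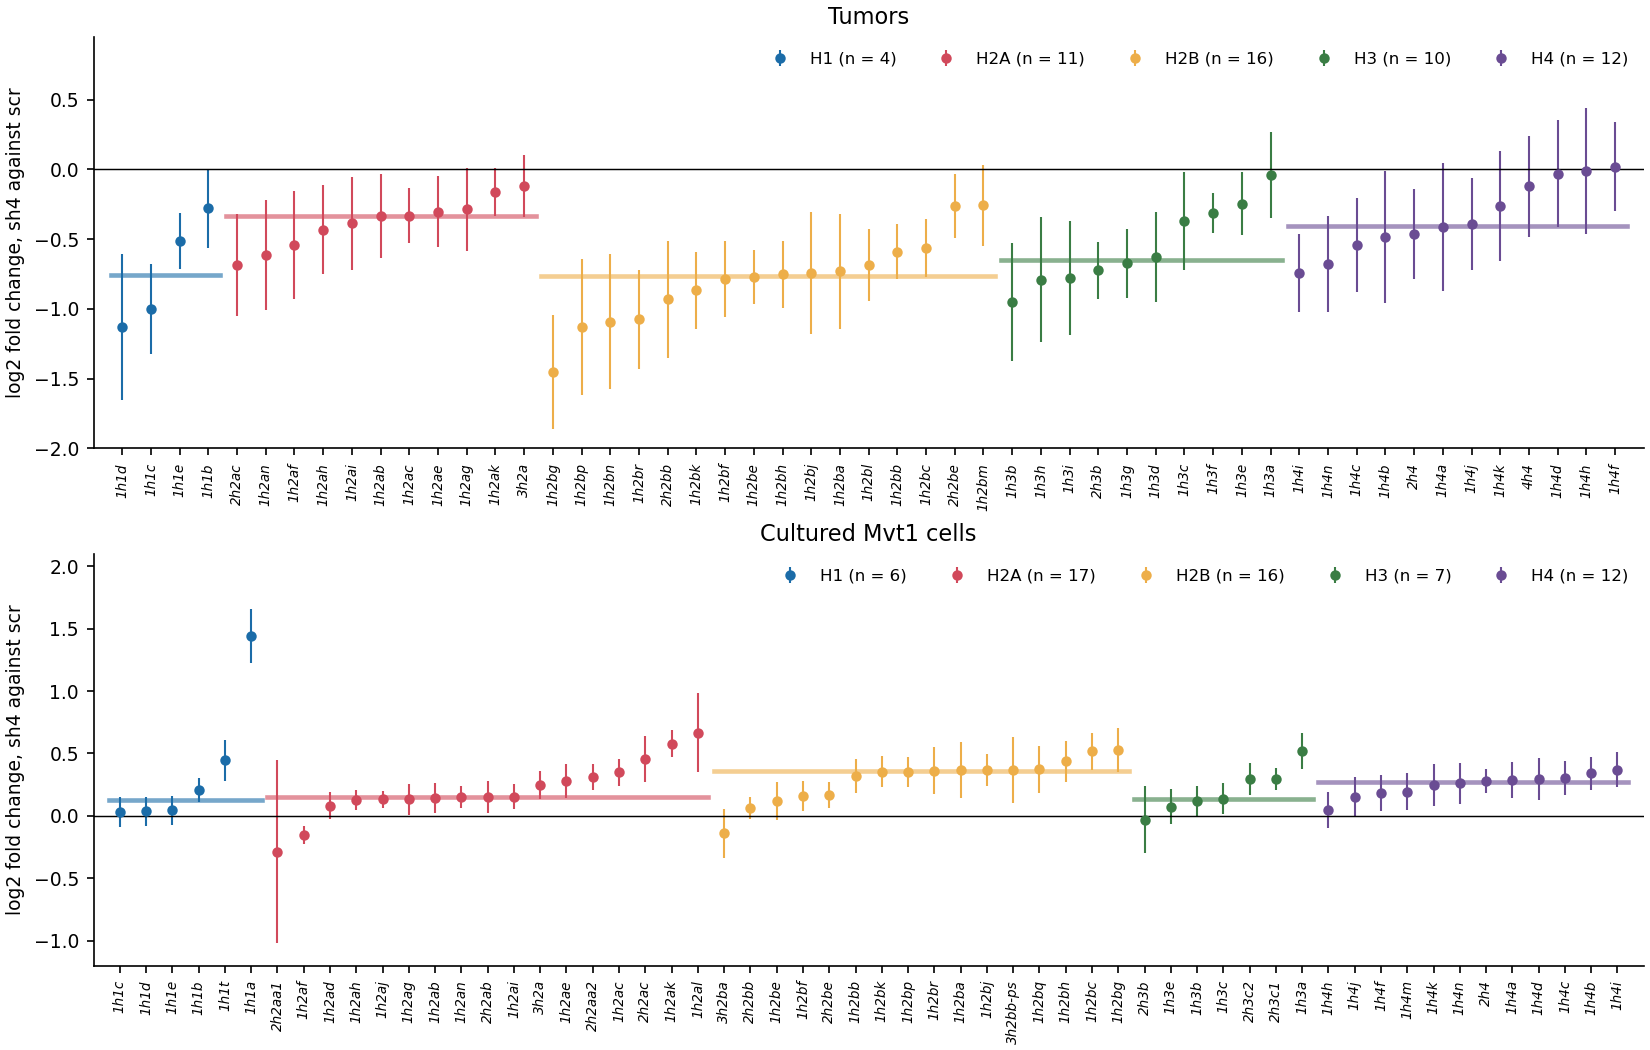
Log2 fold change of sh4 against scr for each histone cluster gene tested (vertical axis), in tumors (upper) and cells (lower), ordered within class, with the standard error of the limma fit as the bar, the class median as a horizontal line and symbols shown without their first 4 letters. In the tumors 52 of 53 points lie below 0, and in the cells 54 of 58 lie above it.

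In the cells 1 library set much of the difference. Scr library 1 was the lowest of the 6 in 49 of 58 members, and its values over all genes summed to 659082 FPKM, against 785372 to 864566 FPKM in the other libraries. Without it the class medians were 0.04 for H1, 0.12 for H2A, 0.19 for H2B, 0.03 for H3 and 0.12 for H4. By plate number the median of sh4 minus scr was 0.51, 0.20 and 0.03 for plates 1 to 3, with 56, 52 and 33 of 58 members higher in sh4. Over all 21106 genes 12111, 9855 and 8959 were higher in sh4 for these plates. The ratio of summed core cluster histones to summed replacement histones was 30.1, 31.3 and 32.0 in scr and 31.5, 34.1 and 32.6 in sh4 libraries, with overlap. The difference between short and long genes was -0.05, -0.01 and -0.02 in scr and 0.05, 0.04 and 0.00 in sh4 libraries, with no overlap. It is the value used as the covariate above, so covariate and group cannot be well told apart.

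Other genes of replication were also higher on average in the sh4 cells. The median log2 fold change was 0.14 over 27 S phase genes, 25 of them above 0, and 0.16 over 18 mitosis genes, 16 above 0. It was 0.10 over 9 replacement histone genes, 0.12 over 18 histone mRNA factors and 0.10 over 19 chaperones. By limma, *Rrm2*, a ribonucleotide reductase subunit, was higher at 64.4, 66.2 and 67.1 FPKM in sh4 against 47.5, 50.9 and 49.0 FPKM in scr libraries (log2 fold change 0.42, adjusted p = 0.0311). *Nasp*, a chaperone that holds soluble H3 and H4, was higher at 5.46, 4.85 and 5.38 FPKM against 3.47, 3.89 and 3.65 FPKM (0.46, limma adjusted p = 0.0476). *Ncbp1*, a subunit of the nuclear cap-binding complex, was higher at 7.56, 7.43 and 7.10 FPKM against 5.15, 5.68 and 5.64 FPKM (0.39, limma adjusted p = 0.0456). *H2afx*, which encodes H2A.X, was at 139, 137 and 140 FPKM in sh4 against 93.02, 113 and 119 FPKM in scr libraries (0.36, limma adjusted p = 0.131). *Slbp*, which encodes the stem-loop binding protein, was at 10.8, 10.1 and 9.67 FPKM in sh4 against 8.16, 9.17 and 9.43 FPKM in scr libraries (0.19, limma adjusted p = 0.251). *Rrm2*, *Nasp* and *Ncbp1* were the genes of these lists that passed the threshold, which 1.28% of all genes passed. None of the 3 passed it with the length covariate, the replicate block or assembled loci. Over 16 alternatives the limma adjusted p ranged from 0.0134 to 0.800 for *Rrm2*, with 8 past the threshold, from 0.0163 to 0.800 for *Nasp*, with 5, and from 0.0104 to 0.800 for *Ncbp1*, with 5. Leaving out any 1 library lost all 3 calls, except that *Rrm2* passed without scr library 1. Each of the 5 lists had its lowest median deviation in scr library 1, where the S phase median deviation was -0.18.

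The 2 comparisons used different samples and are set side by side only by their own values. Of 44 members tested in both, 41 were below 0 in the tumors and above 0 in the cells (28.1% of the 10835 genes tested in both), 2 were below 0 in both and 1 was above 0 in both. In 7 members all 3 sh4 values lay below the scr values in the tumors and above them in the cells (0.581% of the genes tested in both). The rule used both contrasts, and nothing is read from either count. These were *Hist1h4i* and the H2B genes *Hist1h2bb*, *Hist1h2bc*, *Hist1h2bg*, *Hist1h2bh*, *Hist1h2bk* and *Hist1h2bp*. The difference between the tables was not tested, since they were scaled separately.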

How the data were processed

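RPKM values of tumor mRNA were deposited by the authors, who trimmed reads with Trimmomatic and aligned them with TopHat to mm9 and Ensembl genes. FPKM values of cell total RNA were also deposited by the authors. The annotation behind them and the treatment of multiply placed reads were not given in the sources used here. For its comparison of long noncoding RNAs the paper states TopHat alignment with a GENCODE lncRNA annotation. The submitters' processing notes also name STAR 2.7 and TopHat2 2.1.0 without a role. Neither unit is a count, so each table was fitted with limma 3.58.1 (R 4.3.3, variance trend, Benjamini-Hochberg adjustment over all genes tested) on log2(value + 0.5), leaving out genes that averaged under 0.1 across its 6 libraries. On simulated data with 100 genes changed by a log2 of 1 and 100 by 2, the tumor fit called 24 and 73 with 5 false calls over 13487 genes, and the cell fit called 75 and 94 with 11 over 21106 genes. Sequences were read with Python 3.11.15. The members and the gene lists (replacement histones, histone mRNA factors, chaperones, S phase, mitosis and cell type markers) were chosen with earlier results of these data known. Per-library values, ranges where a gene was too low to test, were given for linker genes, the 3 highest members of each core class, the 10 largest fold changes of each table, called members and *Hist1h1c*, *Hist1h1e* and *Hist1h3c*, and other members named were picked after their values were seen. Tumors are paired by the experiment number in the labels. Deviations from the group means correlated at 0.14, 0.33 and -0.12 in experiments 1 to 3. Alternatives were other pseudocounts, filters and scalings, no variance trend, a replicate block, a length covariate, assembled loci and leaving out each library.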

Additional observations from a re-analysis of the deposited data

Results flagged for a closer look

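The histone cluster genes differed in direction between the tumors and the cells in the fit as reported, but not under every alternative. The median log2 fold change of sh4 against scr was -0.54 in tumors and 0.25 in cells over all members tested, and -0.76 and 0.36 over the H2B genes. In the cells the family median was 0.12 without scr library 1 and -0.013 with the length covariate, with 27 of 58 members above 0. The H2B median was then 0.19 and 0.055. The covariate did not overlap between sh4 and scr cell libraries, so its fit cannot separate it well from the group. For *Hist1h2bc* it was -0.57 and 0.52, for *Hist1h2bg* -1.45 and 0.52, and for *Hist1h2bk* -0.87 and 0.35. In each of these genes all 3 sh4 tumors lay below all 3 scr tumors and all 3 sh4 cell libraries above all 3 scr cell libraries. The same held for 0.581% of the 10835 genes tested in both. The family was chosen on both contrasts, so these values are a description and nothing is read from them. The difference between tumors and cells was not tested.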

How the results depend on the processing

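Groups of 3 libraries, shared sequence among members and low tumor read numbers limit single genes. In the tumors 0 members were called by limma in every alternative. The family median was -0.78 with a pseudocount of 0.1 and -0.39 with a pseudocount of 1. It ranged from -0.66 to -0.30 when 1 library was left out, with the lowest sizes without scr 2 (-0.30) and sh4 1 (-0.33). The linker median was -0.40 with no filter, the H2B median was -1.13 with a pseudocount of 0.1, and 30 members were below 0 with a mean of at least 1, where 30 were tested. *Hist1h4h* was at 0.018 with a pseudocount of 1, 0.069 after quantile normalization and 0.049 after median-ratio scaling. With 1 library left out it ranged from -0.45 to 0.49, *Hist1h1b* from -0.49 to 0.045 and *Hist1h3c* from -0.63 to 0.020. Over these fits 43 of 53 members kept 1 sign.

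In the cells the length covariate gave medians of -0.013 for the family, -0.075 for H1, -0.046 for H2A, 0.055 for H2B and -0.032 for H4, with 27 members above 0. Its values did not overlap between the groups, so the covariate fits given here cannot separate it well from the group. The count of members called, 1, was 2 with a mean of at least 1, after quantile normalization and after median-ratio scaling. Over all genes 270 of 21106 were called in the main fit. In these 3 settings 408 of 13704, 1223 of 21106 and 1045 of 21106 genes were called. The member count was 0 with a pseudocount of 0.1, no filter, no variance trend, the length covariate, assembled loci or any 1 library left out. Those settings called 1 to 246 genes over all. Quantile normalization and the length covariate gave -0.12 and -0.20 for *Hist1h1c*, -0.058 and -0.16 for *Hist1h1d*, -0.015 and -0.22 for *Hist1h1e*, -0.0075 and -0.13 for *Hist1h3b*, and -0.092 and -0.16 for *Hist1h3e*. The covariate gave -0.26 for *Hist1h2bq*, -0.076 for *Hist1h3c*, -0.10 for *Hist1h4f*, -0.025 for *Hist1h4n* and -0.0033 for *Hist2h2ac*. Leaving out 1 library gave -0.082 to 0.13 for *Hist1h1c*, -0.065 to 0.13 for *Hist1h1d*, -0.050 to 0.12 for *Hist1h1e* and -0.055 to 0.22 for *Hist1h3e*, each lowest without scr 1. Signs were kept in 48 of 58 members. The causes were not tested.

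With the replicate block the tumor median was -0.54, with 0 members and 0 of all 13487 genes called. In the cells, where nothing says what a plate number pairs and same-numbered deviations correlated at -0.06, -0.08 and -0.07, the block gave 0 members called, as it did for all genes.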
